A study of Mus musculus with 5 samples.

Results

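The 10 genes described here carry glucose into the cell and through glycolysis to lactate: the transporters Slc2a1 and Slc2a3, the hexokinases Hk1 and Hk2, the phosphofructokinase Pfkp, the aldolases Aldoa and Aldoc, the enolase Eno2, and the lactate dehydrogenases Ldha and Ldhb. They were chosen by name, with earlier results of these data known, and found by the RefSeq accession of each array probe, which gave 14 probes of 10 genes among 26300 probes of 19897 named genes. Gene expression was profiled in male wild-type mouse embryonic stem cells (ES) and along their differentiation into spinal motor neurons (MNs), with 1 Agilent one-colour microarray per time point. The labels place embryoid bodies (EBs), floating aggregates of differentiating cells, after 8 h of retinoic acid (RA) at Day2, after 1 day of RA at Day3 and after 2 days at Day4, and call the Day7 sample MN after 5 days of RA although its tissue is given as embryoid bodies. The labels name Shh as the second inducer and the study's methods name SAG, an agonist of the same pathway. Each sample is a whole culture, neither sorted nor dissected by cell type, so fewer cells of a type and less RNA per cell cannot be told apart.

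Glucose enters cells through facilitative transporters of the Slc2a family and is trapped by hexokinase, committed to glycolysis by phosphofructokinase, split by aldolase, and carried past enolase to pyruvate. Lactate dehydrogenase then interconverts pyruvate and lactate, while the mitochondrial carrier and pyruvate dehydrogenase take pyruvate into the mitochondrion for oxidation. Pluripotent cells are known for high glycolytic flux with lactate release, whereas neurons depend on oxidative phosphorylation. Several steps are catalysed by related genes with tissue-specific use, such as Hk2 in growing cells, Hk1 in brain, Eno2 in neurons, and Aldoc in astrocytes and Purkinje cells.

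Values are log2 fluorescence after quantile normalization, which gives the 5 arrays the same distribution. Without replicates there is no spread between samples and no test, so a change of 2-fold or more between arrays, a fixed rule of size, is called a rise or a fall. As a guide to measurement error, different probes of the same gene gave changes from ES to Day7 that lay 0.64 apart on the log2 scale in the median over 3491 genes, and 2.05 apart at the 90th percentile. Every one of the 14 probes cleared background on each of the 5 arrays, with 1 spot per array and none saturated. The share of all mouse probes well above background was 86.7% on Day2 and between 57.5% and 65.7% on the other arrays. Day7 was on a different slide from the other 4 arrays, so slide and Day7 cannot be told apart. Marker genes were read to check the labels. Of 10 matched neuron markers 9 rose from ES to Day7, and of 7 pluripotency markers 6 fell, Nanog being the exception. Of 6 progenitor markers, Nkx6-1, Sox1 and Nes rose from ES to Day7 and Olig2 and Pax6 fell, these last with their highest signals on Day4. In ES cells 8 of the 10 matched neuron markers were already well above background, all but Dcx and Chat.

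From ES to Day7, 3 of the 10 genes rose, Hk1, Pfkp and Eno2, and 5 fell, Slc2a1, Slc2a3, Hk2, Aldoc and Ldha. Aldoa and Ldhb changed by less than 2-fold. Over all 15835 genes with a value, 23.2% rose and 24.4% fell in the same comparison, 47.6% in either direction. The median log2 change was -1.04 over the 10 genes and -0.07 over all genes. Over the 5 arrays, the signal of 9 of the 10 genes spanned 2-fold or more, against 66.9% of 13467 genes well above background on every array, with Aldoa the exception at 1.67-fold.

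**Figure D1:**
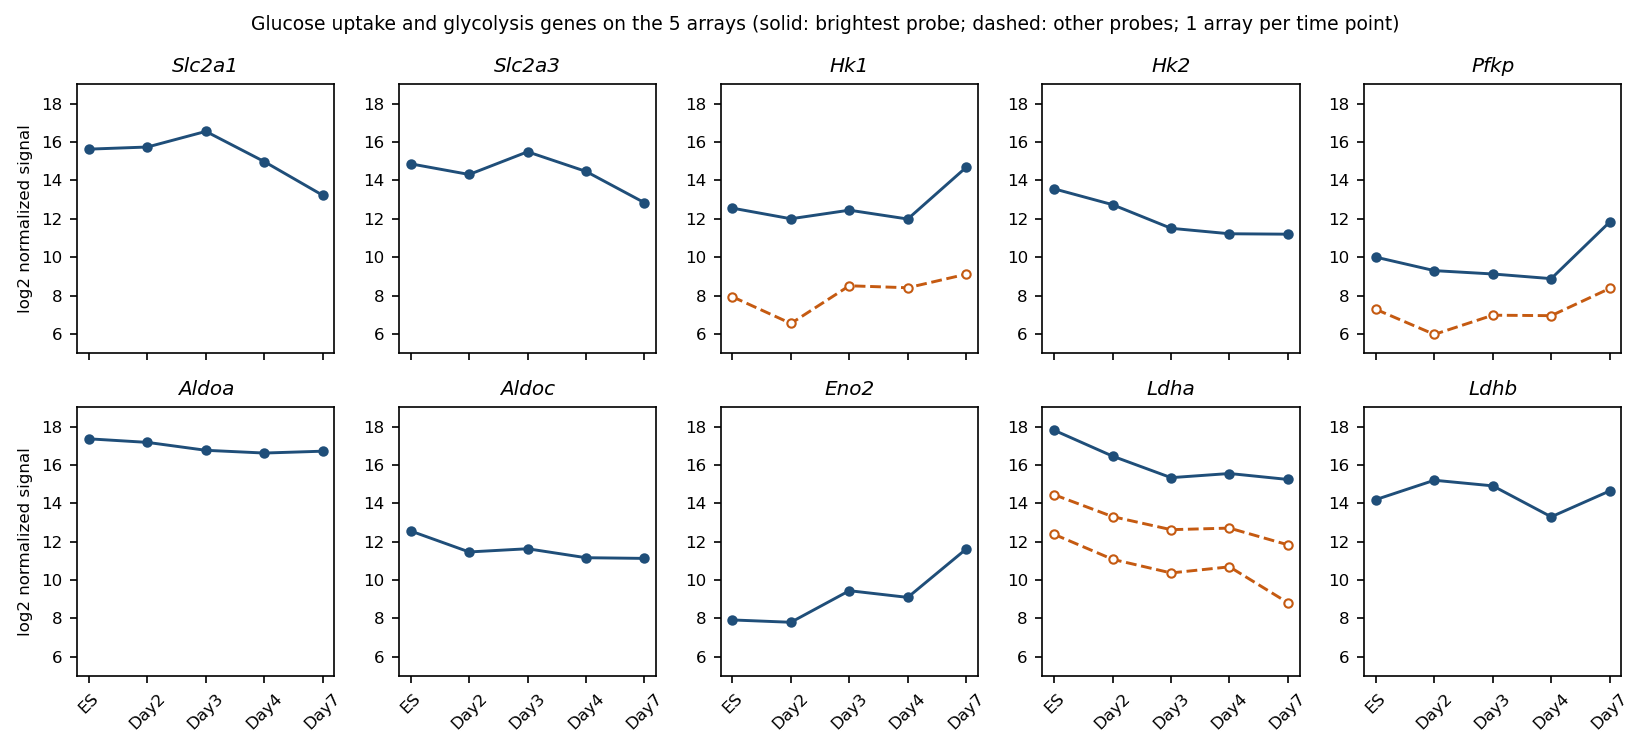
Log2 normalized signal of each gene (vertical axis) on the ES, Day2, Day3, Day4 and Day7 arrays (horizontal axis, 1 array each). Solid lines join the brightest probe of the gene and dashed lines its other probes. Both transporters peak on Day3 and are lowest on Day7, Hk2 and Ldha fall by Day3, and Hk1, Pfkp and Eno2 are highest on Day7. Levels of different probes cannot be compared with each other.

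Slc2a1 encodes GLUT1, the widely expressed glucose transporter. Its log2 signal was 15.63 in ES, 15.74 at Day2, 16.56 at Day3, 14.98 at Day4 and 13.23 at Day7. The highest and lowest arrays, Day3 and Day7, differed by 10.1-fold, and Day7 was 5.30-fold below ES. Slc2a3 encodes GLUT3, a high-affinity transporter of neurons and of early embryos, and its log2 signal was 14.87, 14.31, 15.49, 14.47 and 12.84 in the same order. It was 4.07-fold lower on Day7 than in ES. On this scale the 2 transporters therefore had the same order at the extremes, highest on Day3 and lowest on Day7. Before normalization Slc2a3 was higher in ES, at 45480.4, than on Day3, at 36980.6. Their changes from ES to Day7 differed by 0.38 on the log2 scale, less than the median gap between probes of one gene. Slc2a3 rose 2.27-fold from Day2 to Day3, and Slc2a1 was 1.76-fold higher on Day3 than on Day2. Both then fell from Day3 to Day4, Slc2a1 by 2.98-fold and Slc2a3 by 2.03-fold, and again from Day4 to Day7, by 3.37-fold and 3.10-fold. Without any normalization, where the median of all genes moved by 1.06 from Day4 to Day7, that step gave log2 changes of -0.59 for Slc2a1 and -0.39 for Slc2a3, below 2-fold. Markers of other germ layers were read beside the transporters, since the cultures were not sorted. Of these 9 genes, Gata4, Gata6, Sox17 and Hbb-bh1 rose from Day2 to Day3 and fell from Day4 to Day7, and Hbb-bh1, an embryonic globin, read 7.08, 10.65, 12.52, 12.27 and 8.53 on the 5 arrays. The summed log2 signal of the list was 13.45, 13.18, 13.95, 14.28 and 14.94, highest on Day7, and Afp was not well above background on any array. The sum follows its brightest genes and does not measure the share of such cells. Foxa2 read 14.12 and Kdr 13.65 on Day7, and Kdr already 13.33 in ES. On Day7, 5 of the 9 were well above background, and T, Sox17, Afp and Myod1 were not. The part of such cells in the transporters' course was not tested.

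The hexokinases moved in opposite directions. Hk2, the inducible form prominent in proliferating cells, had log2 signals of 13.56 in ES, 12.74 at Day2, 11.51 at Day3, 11.22 at Day4 and 11.20 at Day7. It fell 2.35-fold from Day2 to Day3, was 5.14-fold lower on Day7 than in ES, and on Day3, Day4 and Day7 stayed within 1.24-fold. Hk1, the form that predominates in brain, had log2 signals of 12.56, 12.00, 12.45, 11.99 and 14.68 on the same arrays. It varied by less than 2-fold among the first 4 arrays and rose 6.48-fold from Day4 to Day7, which left it 4.37-fold above ES. The log2 change from ES to Day7 was thus 4.49 higher for Hk1 than for Hk2, a 22.5-fold shift of their ratio. With the brightest Hk1 probe, the ratio had shifted by 3.42-fold by Day4. A dimmer probe of Hk1 read 7.94, 6.55, 8.51, 8.41 and 9.11, and its rise from ES to Day7 was 2.26-fold. Its course on the quantile scale differed from that of the brightest probe: it fell 2.62-fold from ES to Day2, rose 3.90-fold from Day2 to Day3 and was 1.63-fold higher on Day7 than on Day4. Before normalization its signal was 262.7 in ES, 199.3 at Day2 and 271.8 at Day3, with each step under 2-fold. With that probe the log2 difference to Hk2 from ES to Day7 was 3.54.

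Pfkp encodes the platelet type of phosphofructokinase, the main control point of glycolysis, and is expressed in brain. Its log2 signal declined from 10.002 in ES to 9.30 on Day2, 9.13 on Day3 and 8.88 on Day4, and stood at 11.83 on Day7. The rise from Day4 to Day7 was 7.72-fold and Day7 was 3.55-fold above ES. The dimmer Pfkp probe also had its highest signal on Day7, 8.37 against 7.28 in ES, a rise of 2.13-fold, but its lowest on Day2, 5.98. Before normalization the signal of this probe was lowest on Day4, 68.6, against 153.1 on Day2. Pfkl, the liver type, fell 2.32-fold from ES to Day7, from 11.94 to 10.73, and Pfkm, the muscle type, was 2.02-fold higher, 13.21 against 12.20. The ratio of Pfkp to Pfkl shifted by 8.24-fold from ES to Day7, with log2 differences of 2.30 and 3.04 for the 2 Pfkp probes, and that of Pfkm to Pfkl by 4.68-fold. With arrays aligned at their 75th percentiles in place of quantile normalization (the 75th percentile shift), the log2 change of Pfkm was 0.54, below 2-fold.

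The aldolases did not part in this way. Aldoa, the form found in most tissues, had log2 signals of 17.36 in ES, 17.18 at Day2, 16.77 at Day3, 16.62 at Day4 and 16.72 at Day7. The log2 difference between Day7 and ES, -0.64, depended on the scaling and was -1.63 with the 75th percentile shift, past 2-fold. Aldoc, the form known from brain, had log2 signals of 12.56, 11.47, 11.63, 11.17 and 11.13. It fell 2.13-fold from ES to Day2, changed by less than 2-fold in each later step, and on Day7 was 2.69-fold below ES, its lowest array. The log2 change of Aldoc from ES to Day7 minus that of Aldoa was -0.78, or -0.14 with the 75th percentile shift, under 2-fold on both scales. Since Aldoc also marks astrocytes, the 10 glial markers were read beside it. Their summed log2 signal was 12.83 in ES, between 10.82 and 11.52 on Day2, Day3 and Day4, and 17.48 on Day7, where Fabp7, a radial glia gene, alone read 17.45. On Day7, 8 of the 10 were well above background, and Gfap and S100b were not. From ES to Day7, Slc1a2 and Fabp7 rose, Aqp4 and Olig1 fell, and among the other astrocyte genes Slc1a3 read 9.69 and 10.63 and Aldh1l1 8.94 and 9.09. The part of such cells in the values of the 10 genes was not tested.

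Eno2, the neuronal enolase, rose most of the 10 genes. Its log2 signals were 7.92 in ES, 7.80 at Day2, 9.45 at Day3, 9.10 at Day4 and 11.62 at Day7, a rise of 13.0-fold from ES to Day7. The increase came in 2 steps, 3.13-fold from Day2 to Day3 and 5.74-fold from Day4 to Day7. Eno1, the form of most other tissues, read 17.63 in ES and 16.85 on Day7, and the ratio of Eno2 to Eno1 shifted by 22.3-fold, a log2 difference of 4.48, or 5.45 with the 75th percentile shift. Eno3, the muscle form, fell 5.41-fold from ES to Day7. Of the 10 matched neuron markers, 1 rose from Day2 to Day3, Map2, by 2.27-fold, and 1 fell, Syt1, whereas 9 rose from Day4 to Day7.

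Ldha encodes the M subunit of lactate dehydrogenase, which favours lactate formation, and Ldhb the H subunit. The brightest Ldha probe read 17.81 in ES, 16.46 at Day2, 15.34 at Day3, 15.56 at Day4 and 15.25 at Day7. Ldha fell in the first 2 steps, 2.55-fold from ES to Day2 and 2.18-fold from Day2 to Day3, and then stayed within 2-fold up to Day7, 5.91-fold below ES. From Day2 to Day3 the other Ldha probes were lower by 1.60-fold and 1.64-fold, short of 2-fold, and from ES to Day7 they fell by 6.11-fold and 11.8-fold. On the dimmest of the 3 probes, 3.66-fold of this lay between Day4 and Day7, a step in which the brightest changed by 1.24-fold. Ldhb read 14.20, 15.20, 14.91, 13.30 and 14.65, highest on Day2 and lowest on Day4. It rose 2.01-fold from ES to Day2, fell 3.06-fold from Day3 to Day4 and rose 2.55-fold from Day4 to Day7. The first of these changes was close to the limit and stayed under 2-fold with the 75th percentile shift and without normalization. Its log2 difference between Day7 and ES was 0.45, or -0.32 with the 75th percentile shift. The log2 change from ES to Day7 was 3.01 to 4.01 higher for Ldhb than for Ldha over the 3 Ldha probes, and 8.07-fold with the brightest. Measured from ES, the shift of this ratio was 5.12-fold on Day2, 9.09-fold on Day3 and 2.56-fold on Day4, so it did not grow steadily.

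**Figure D2:**
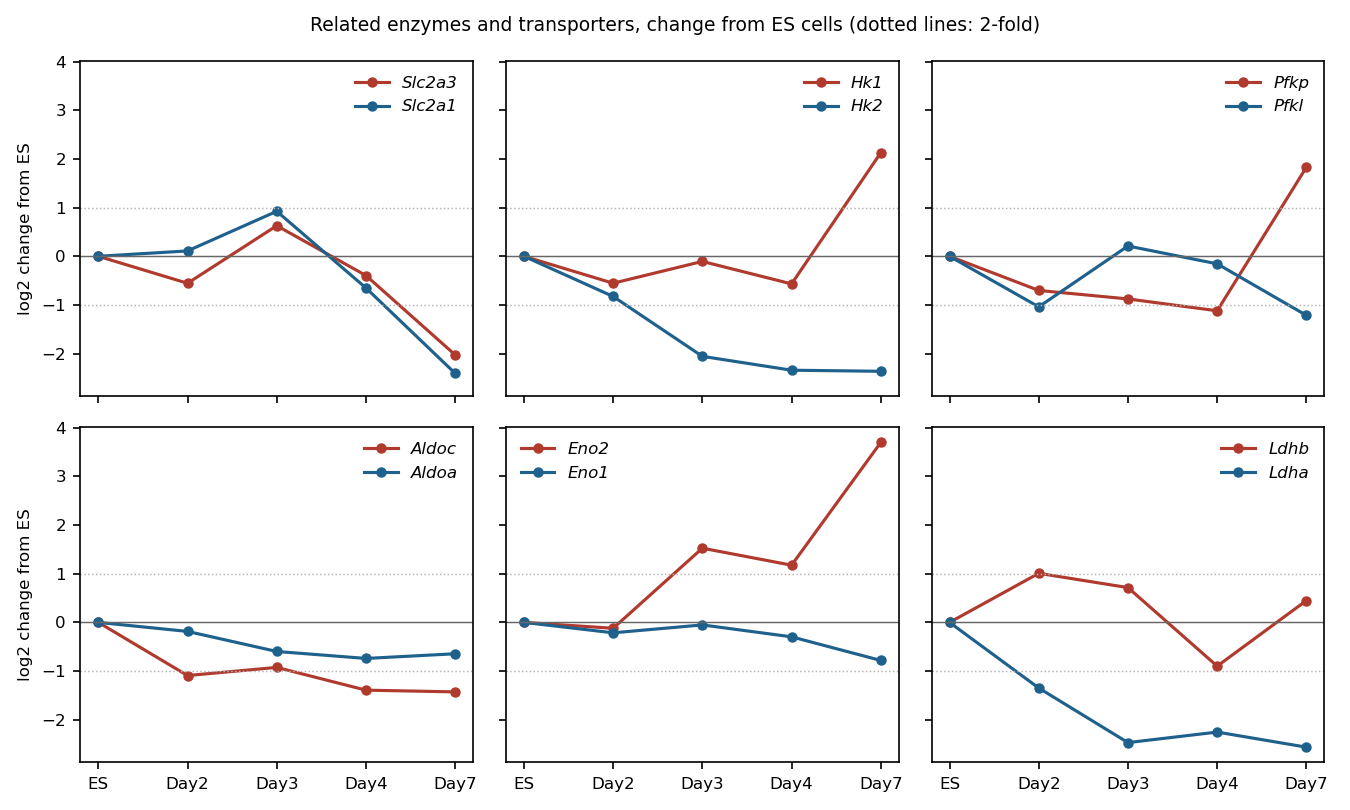
Log2 change from ES (vertical axis) on each array (horizontal axis) for 6 pairs of related genes, with dotted lines at 2-fold. Hk1 and Hk2, Pfkp and Pfkl, Eno2 and Eno1, and Ldhb and Ldha lie 3.01 or more apart on Day7, whereas Slc2a3 and Slc2a1 lie 0.38 apart and the change of Aldoc minus that of Aldoa is -0.78.

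The changes were then counted step by step. From ES to Day2, 1 of the 10 genes rose and 2 fell, against 8.82% and 11.3% of all genes (20.1% in either direction), and these were Ldhb, Aldoc and Ldha. From Day2 to Day3, 2 rose, Slc2a3 and Eno2, and 2 fell, Hk2 and Ldha, against 13.0% and 7.76% of all genes (20.7%). From Day3 to Day4, the step with the fewest changes over all genes, 0 rose and 3 fell, Slc2a1, Slc2a3 and Ldhb, against 3.62% and 4.85% (8.47%). From Day4 to Day7, 4 rose, Hk1, Pfkp, Eno2 and Ldhb, and 2 fell, the transporters, against 17.8% and 18.1% (35.9%). These counts use the brightest probe of each gene, and on the quantile scale the dimmer probes placed some changes in other steps. From Day2 to Day3 the dimmer Hk1 probe rose 3.90-fold and the dimmer Pfkp probe 2.00-fold. Before normalization these went from 199.3 to 271.8 and from 153.1 to 86.8, while the median log2 change of all genes was -0.81. From Day4 to Day7 the dimmest Ldha probe fell 3.66-fold, and the fall of Ldha from Day2 to Day3 passed 2-fold with 1 of its 3 probes.

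The promoter sequences of the genes that fell most and of 2 that rose are shown because the letters ACGTG and GCGTG, the core of the hypoxia response element, and CACGTG, the E-box bound by Myc family factors, are well known from glycolytic promoters. The windows are those of RefSeq on GRCm38.p6, from 250 bases before to 50 after a start site, and 9 of the 10 genes matched, with 14 windows. They run 5′ to 3′ on the gene's strand, with every ACGTG or GCGTG of either strand in capitals. The first of the 2 Ldha windows is shown.
Ldha, chr7:46845554-46845853, + strand: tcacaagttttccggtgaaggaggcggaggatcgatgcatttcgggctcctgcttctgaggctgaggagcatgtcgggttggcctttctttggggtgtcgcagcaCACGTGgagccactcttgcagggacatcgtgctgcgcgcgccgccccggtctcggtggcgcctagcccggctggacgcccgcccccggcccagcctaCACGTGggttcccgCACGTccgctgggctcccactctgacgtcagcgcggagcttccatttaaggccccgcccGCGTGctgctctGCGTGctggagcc
Hk2, chr6:82774405-82774704, - strand: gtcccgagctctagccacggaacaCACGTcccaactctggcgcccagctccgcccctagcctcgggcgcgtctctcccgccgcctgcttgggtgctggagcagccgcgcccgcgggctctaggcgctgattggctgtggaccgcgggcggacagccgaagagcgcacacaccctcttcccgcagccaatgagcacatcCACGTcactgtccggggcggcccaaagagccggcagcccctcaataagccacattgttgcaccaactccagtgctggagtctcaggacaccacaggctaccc
Slc2a1, chr4:119108495-119108794, + strand: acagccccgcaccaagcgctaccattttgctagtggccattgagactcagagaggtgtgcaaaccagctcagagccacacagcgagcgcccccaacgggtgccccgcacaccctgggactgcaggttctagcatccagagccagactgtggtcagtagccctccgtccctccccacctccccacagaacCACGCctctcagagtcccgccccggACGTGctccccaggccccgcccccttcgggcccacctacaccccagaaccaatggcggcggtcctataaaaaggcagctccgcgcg
Pfkp, chr13:6648722-6649021, - strand: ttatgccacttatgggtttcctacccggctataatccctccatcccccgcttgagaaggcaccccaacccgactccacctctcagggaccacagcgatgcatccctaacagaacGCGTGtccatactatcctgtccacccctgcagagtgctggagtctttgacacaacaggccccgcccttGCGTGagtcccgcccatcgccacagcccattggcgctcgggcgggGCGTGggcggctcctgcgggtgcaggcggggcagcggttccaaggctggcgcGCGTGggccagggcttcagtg
Eno2, chr6:124769624-124769923, - strand: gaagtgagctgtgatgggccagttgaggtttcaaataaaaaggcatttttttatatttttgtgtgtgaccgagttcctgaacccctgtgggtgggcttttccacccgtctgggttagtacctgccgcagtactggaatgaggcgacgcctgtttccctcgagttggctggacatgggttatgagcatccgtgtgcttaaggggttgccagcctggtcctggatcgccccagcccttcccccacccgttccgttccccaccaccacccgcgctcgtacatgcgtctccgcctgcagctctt
Both strands were searched, and each CACGTG holds ACGTG on both strands. ACGTG was found in 7 of the 14 windows (6 of the 9 genes) and in 19.6% of all 32851 windows, GCGTG in 8 of the 14 (6 genes) and in 32.4%, and CACGTG in 1 of the 14 and in 7.15%. Windows of one gene can overlap, as those of Aldoa do. The window with CACGTG was of Ldha, and it held CACGTG 2 times, ACGTG 5 times and GCGTG 2 times. The Hk2 window held ACGTG 2 times, and that of Slc2a1 held ACGTG and GCGTG 1 time each. Among the genes that rose, the Pfkp window held GCGTG 4 times, 1 of the 2 Hk1 windows held ACGTG 2 times and GCGTG 3 times, and the Eno2 window held none of these letters. The GC content was 67.3% for Ldha and Hk2, 65.3% for Slc2a1, 64.7% for Pfkp and 56.3% for Eno2, against a median of 52.7% over all windows. A match of letters is a description of the sequence and not evidence of binding.

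The other genes of the pathway were read from lists of 11 glucose transporters and 27 glycolytic enzymes. Of 25 enzymes with a value from ES to Day7, 5 rose and 7 fell, near the 23.2% and 24.4% of all genes, with a median log2 change of -0.64. Beside the members, Hkdc1 rose at least 5.06-fold and Pfkm 2.02-fold, and Pfkl, Eno3, Pgk2 and Ldhc fell, the last 2 to signals not well above background on Day7. At the other steps, 6 bright genes stayed under 2-fold on this scale: Gpi1 read 16.40 in ES and 16.58 on Day7, Tpi1 14.98 and 15.36, Gapdh 18.54 and 18.41, Pgk1 16.25 and 15.29, Pgam1 16.76 and 15.89, and Pkm 16.28 and 15.91. These are among the brightest probes, which quantile normalization holds to a common top value. With the 75th percentile shift, 5111 of all 15835 genes fell and 3287 rose, with a median of -0.35. On that scale 13 of the 25 enzymes fell and 4 rose, and the log2 changes were -1.81 for Pgk1, -1.76 for Pgam1, -1.77 for Eno1, -1.30 for Pkm, -0.84 for Gpi1, -0.75 for Gapdh and -0.42 for Tpi1. Among 8 transporters with a value, Slc2a6 rose 3.38-fold (a log2 change of 0.73, under 2-fold, with its dimmer probe) and Slc2a5, the fructose transporter, fell 3.69-fold, as did Slc5a2, by at least 2.55-fold. Slc2a4, the insulin-regulated GLUT4, read 8.45 in ES, 10.43 on Day3 and 8.11 on Day7.

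**Figure D3:**
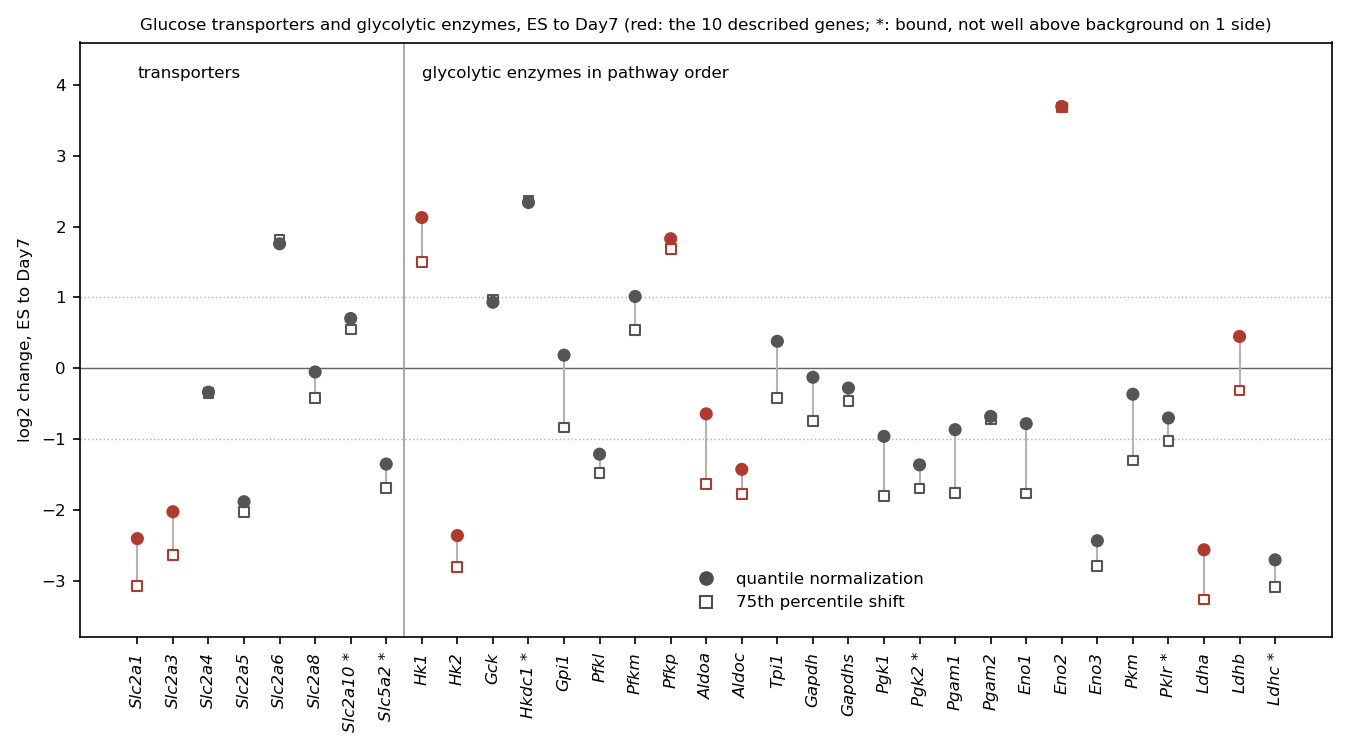
Log2 change from ES to Day7 (vertical axis) of glucose transporters and glycolytic enzymes with a value, in pathway order (horizontal axis). Circles give quantile normalization and squares the 75th percentile shift, red marks the 10 genes, and an asterisk marks a bound. Hk1, Pfkp and Eno2 lie above and Slc2a1, Slc2a3, Hk2, Aldoc and Ldha below the 2-fold lines on both scales, whereas Aldoa lies below only with the 75th percentile shift.

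Genes that set the fate of pyruvate were read beside Ldha and Ldhb. Slc16a3, the MCT4 carrier of lactate-exporting cells, had log2 signals of 14.64 in ES, 13.77 at Day2, 13.09 at Day3, 11.72 at Day4 and 11.59 at Day7. On this scale its 2-fold step, from Day3 to Day4, was not one of those of Ldha. With the 75th percentile shift or without normalization it also fell past 2-fold from ES to Day2, as Ldha did. From ES to Day7 Slc16a3 fell 8.32-fold. Slc16a1, the MCT1 carrier, fell 3.85-fold, and Slc16a7, the MCT2 carrier known from neurons, rose at least 4.61-fold from a signal not well above background in ES. Mpc1 and Mpc2, the subunits of the mitochondrial pyruvate carrier, rose 3.16-fold and 3.69-fold. Mpc1 read 11.76 in ES, 11.11 on Day4 and 13.42 on Day7, so its rise came in the same step as those of Hk1 and Pfkp. Pdk1, a kinase that inhibits pyruvate dehydrogenase, read 12.12, 11.83, 9.63, 9.07 and 8.56, a fall of 11.8-fold, and Pdk4 fell 12.8-fold, with 9.32 in ES, 5.52 on Day2 and 5.64 on Day7. Pdp1, the phosphatase that reactivates the complex, read 9.88, 8.64, 7.53, 7.88 and 11.63 and rose 3.36-fold from ES to Day7. Pdk3 read 10.77 in ES, 12.85 on Day4 and 10.19 on Day7. The 5 subunits of the complex, Pdha1, Pdhb, Dlat, Dld and Pdhx, each changed by less than 2-fold, but with the 75th percentile shift Pdhb fell by 1.25 on the log2 scale. In the list of 11 genes of the complex and its regulators 1 rose and 2 fell, against 47.6% of all genes in either direction. With the 75th percentile shift 2 rose and 3 fell, where 3287 of all 15835 genes rose and 5111 fell.

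**Figure D4:**
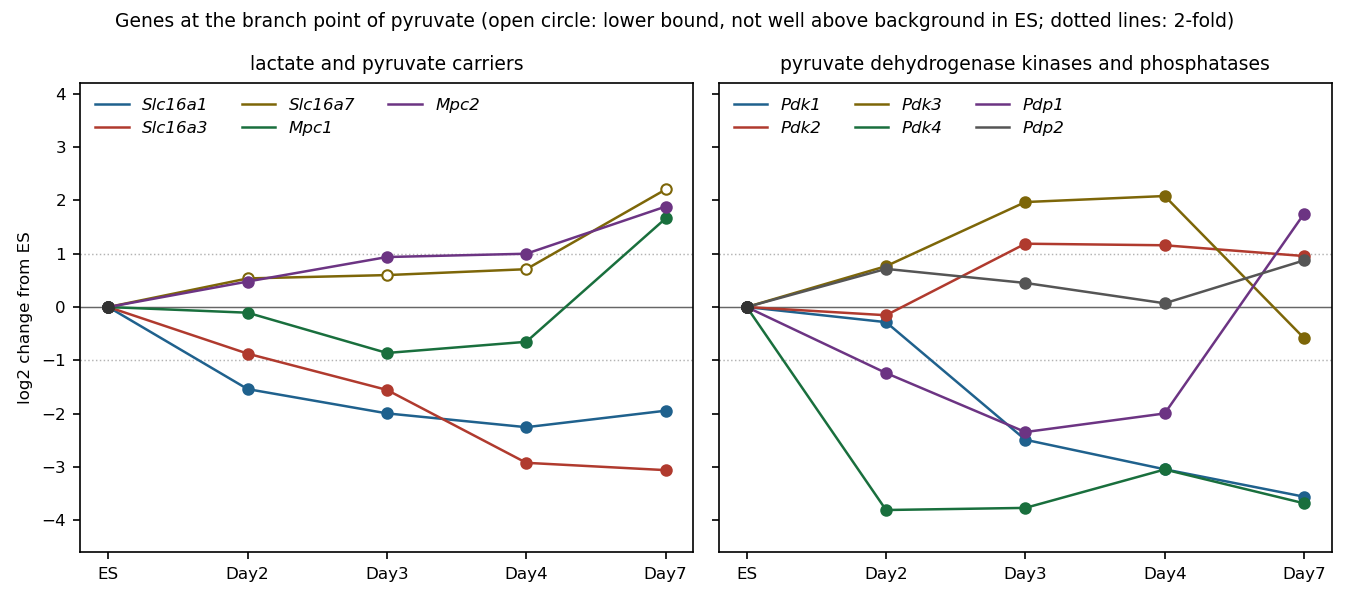
Log2 change from ES (vertical axis) on each array (horizontal axis) of carriers of lactate and pyruvate (left) and of kinases and phosphatases of pyruvate dehydrogenase (right). Open circles are lower bounds for Slc16a7, which was not well above background in ES, and dotted lines mark 2-fold. Slc16a3, Slc16a1, Pdk1 and Pdk4 end below the lower line and Slc16a7, Mpc1, Mpc2 and Pdp1 above the upper.

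Among 14 regulators of glycolytic flux, 3 rose and 6 fell from ES to Day7, against 23.2% and 24.4% of all genes, with a median log2 change of -0.42. Mycn, a Myc family factor, read 14.52 in ES, 11.60 at Day2, 11.49 at Day3, 12.41 at Day4 and 12.06 at Day7, so its fall, like the first falls of Ldha and Aldoc, lay between ES and Day2. Myc fell 2.16-fold from ES to Day7, but not steadily, with 9.99 at Day2, 9.18 at Day3, a rise of 2.98-fold to 10.75 at Day4, and 9.89 at Day7. Hif1a, a hypoxia-inducible factor, stayed between 11.32 and 11.89 on the 5 arrays. Epas1, another such factor, read 12.99 in ES and 11.95 on Day7, with log2 changes between -2.57 and -1.05 over the alternatives. Of the bifunctional enzymes that set fructose-2,6-bisphosphate, the activator of phosphofructokinase, Pfkfb2 rose 2.80-fold, Pfkfb4 rose 3.08-fold and Pfkfb1 fell 4.52-fold from ES to Day7, while Pfkfb3 read 11.24 in ES, 9.79 on Day2 and 11.69 on Day7. With the mean over its 2 probes Pfkfb4 gave a log2 change of -0.14.

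For each of the 8 genes changed from ES to Day7, the 3 genes with the nearest course were taken by Euclidean distance between log2 values centred on their mean over the 5 arrays, among 13467 genes. They were Fyn, Sirpa and Shtn1 for Eno2, Pcbp3, Acap3 and Lalba for Hk1, and Ppfibp2, Pde9a and Pde4b for Pfkp. For the genes that fell they were Txlng, Prelid3a and Calcr for Hk2, G2e3, Zfp729a and Tor3a for Ldha, Plekha1, Dnaic1 and Pabpc5 for Aldoc, Epor, Bpifb4 and Folr2 for Slc2a1, and Cd164l2, Slc5a5 and Cited4 for Slc2a3. Distances lay between 0.13 for Pcbp3 and 0.47 for Folr2. With 5 values per gene among so many genes, near courses are a description only.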

How the data were processed

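Expression was measured on 5 one-colour (Cy3) Agilent mouse arrays, 1 per time point, from total RNA of whole cultures. The deposited scanner files hold fluorescence intensity per spot, background-corrected by the authors' scanner software (Agilent Feature Extraction 10.5.1, per the file headers). The deposited series table holds log2 values by the authors, which for all probes lay within 0.01 of the mean log2 processed signal minus 1 constant per array near its 75th percentile, and it served as an alternative. Control and outlier spots were left out, log2 processed signal was averaged per probe and quantile-normalized with limma 3.58.1 in R 4.3.3; Python 3.11.15, numpy 2.4.6, pandas 2.3.3 and matplotlib 3.10.9 did the rest. Probes were named through RefSeq accessions, and of the 5339 genes with more than 1 probe the brightest represented the gene. Where a probe was not well above background on 1 side, that side was raised to the dimmest reliably detected signal of the array and the fold is a bound ("at least"). No test was possible with 1 array per time point, so a 2-fold change was the rule of size. The 10 genes and the lists were chosen with earlier results of these data known. Named are the 10 genes, the 3 nearest courses and, from the lists, some but not all of the genes changed 2-fold or more from ES to Day7 or in a step. Genes of the pathway order were named whether changed or not. Slc2a12 and Mnx1 were not matched. The calculation of changes was checked on simulated intensities. Alternatives were a 75th percentile shift, no normalization, the deposited log2 table, normexp with an offset of 50 (on median spot signals), the mean or dimmest probe, other background flags, and 1.5-fold and 4-fold limits. No spot was saturated, so leaving out saturated spots changed nothing, and the slide could not be fitted as a block. Precision is limited by the single array per time point. One marker gene is not reported here.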

Additional observations from a re-analysis of the deposited data

How the results depend on the processing

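From ES to Day7, all 63 values of the 7 paralog differences under the alternatives kept their direction and side of 2-fold. Many of these values were bound to repeat one another. A shift of a whole array cancels in a difference, and the background settings left these genes, above background on every array, unchanged. For genes with 1 probe the choice of probe changed nothing either. On the quantile scale, single steps did not all keep direction and side of 2-fold between probes. Between the Hk1 probes, Hk1 minus Hk2 ran from -0.56 to 0.27 from ES to Day2 and from 0.73 to 2.72 from Day4 to Day7. Between the Pfkp probes, Pfkp minus Pfkl ran from -0.27 to 0.34 from ES to Day2. The 18 raised genes of the 9 pathway lists became 30 at 1.5-fold and 6 at 4-fold, and the 29 lowered became 44 with the 75th percentile shift, the deposited log2 table or 1.5-fold and 14 at 4-fold. Of all 15835 genes, 3867 were lowered on the main scale and 5111 with the 75th percentile shift. Of the 10 genes, the 1 raised from ES to Day2 became 0 with the 75th percentile shift, no normalization, the deposited log2 table or 4-fold, and the 2 lowered became 4 with the dimmest probe or 1.5-fold and 0 at 4-fold. From Day2 to Day3 the 2 raised became 0 without normalization or at 4-fold and 4 with the dimmest probe, and the 2 lowered became 4 without normalization, 1 with the mean or dimmest probe and 0 at 4-fold. From Day3 to Day4 the 3 lowered became 0 at 4-fold, and from Day4 to Day7 the 2 lowered became 0 without normalization or at 4-fold. The share of all genes changed went from 20.1% to 9.83% with normexp from ES to Day2, from 20.7% to 10.7% with normexp and 40.8% without normalization from Day2 to Day3, from 8.47% to 4.23% with normexp and 13.1% with another background flag from Day3 to Day4, and from 35.9% to 55.5% without normalization from Day4 to Day7. The cause was not tested.

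Among changed genes the raised share was 43.9% from ES to Day2, and 70.2% with the 75th percentile shift, 70.1% with the deposited log2 table, 82.9% without normalization and 29.5% among genes well above background on both arrays. From Day2 to Day3 it was 62.6%, and 25.5%, 25.5%, 3.41% and 76.0% in the same order. From Day3 to Day4 it was 42.7%, 20.1% without normalization and 53.0% with normexp, and from Day4 to Day7 49.5%, and 94.0% without normalization. The direction changed for Pfkfb4 (-0.14, mean over probes), Arrdc4 (1.04, dimmest probe) and Mlxip (-0.31, dimmest probe) from ES to Day7, for Pfkp from Day2 to Day3 (1.001, dimmest probe with quantile normalization), and for Hk2 (1.24) and Aldoc (1.23) from Day4 to Day7 without normalization, all as log2 changes. In this last setting the median of all genes moved by 1.06, and relative to it Hk2 was at 0.18 and Aldoc at 0.17, so the sign belongs to the scaling of all genes.

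No paired analysis was possible because there was only 1 array at each time point, which also leaves no replicate to omit. Slide and Day7 cannot be told apart, bright probes are held together by quantile normalization, and dim probes near background, most of all on Day2, carry the least reliable changes.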

Other observations

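Genes of neighbouring pathways were read in the same way. Of 10 genes of glycogen metabolism with a value, 2 rose and 1 fell from ES to Day7, against 23.2% and 24.4% of all genes, with a median log2 change of 0.69. With the 75th percentile shift 2 rose and 2 fell, against 3287 raised and 5111 lowered of all 15835 genes. Pygl, the liver type of glycogen phosphorylase, read 8.07 in ES, 8.24 at Day2, 8.97 at Day3, 9.30 at Day4 and 10.81 at Day7, a rise of 6.65-fold with no step down. Of 5 genes of gluconeogenesis with a value, 1 rose, G6pc3, and 1 fell, Fbp1, with a median log2 change of 0.11. Fbp1, the gluconeogenic enzyme that opposes phosphofructokinase, fell 11.6-fold. Of 7 genes of the pentose phosphate pathway with a value, 0 rose and 1 fell, Rpe, by -1.49 on the log2 scale, again against 23.2% and 24.4%. With the 75th percentile shift 3 fell, G6pdx, Pgd and Rpe, and the list's median went from -0.16 to -0.93. On that scale 3287 of all 15835 genes rose and 5111 fell, with a median of -0.35. Without normalization 1 of the list rose and 2 fell, against 4130 raised and 3609 lowered of all genes.

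Of 13 hypoxia-responsive genes outside glycolysis, 2 rose and 4 fell from ES to Day7 beside the same shares of all genes, and the list's median was -0.73 on the log2 scale. With the 75th percentile shift 2 rose and 7 fell, where 3287 of all 15835 genes rose and 5111 fell. Between ES and Day2, the step in which Ldha and Aldoc fell, 0 rose and 6 fell: Egln3, Ankrd37, Bnip3, Ndrg1, Ddit4 and P4ha1, against 8.82% and 11.3% of all genes. With the 75th percentile shift 1 rose, Car9, and 5 fell, against 3018 raised and 1283 lowered of all 18315 genes. Without normalization 2 rose, Vegfa and Car9, and 5 fell, against 3770 raised and 778 lowered. Vegfa, the vascular growth factor, went from 9.83 in ES to 11.87 on Day7, and its log2 change lay between 0.30 and 2.27 over the alternatives.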
